A study of Mus musculus with 2 samples.

Results

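The myosin light chain and myosin-binding protein C genes were examined in a list of TBX5 peaks from adult mouse ventricle, as 5 windows of the genome, 1 around each of Myl2, Myl3, Mybpc3, Myl7 and Myl4. A peak belonged to a window where its summit, the base with the highest pileup, lay inside it. The windows held 15 of the 8849 peaks of the list. These were 6 for Myl2, 1 for Myl3, 5 for Mybpc3, 3 for Myl7 and 0 for Myl4. Chromatin came from heart ventricles of wild-type C57BL/6 mice at 15 weeks of age with no treatment, was fixed with 2% formaldehyde, and DNA pulled down by an anti-TBX5 antibody was sequenced (ChIP-seq). A rabbit IgG served as control antibody in chromatin of the same kind of mice, and its own values were not analysed here. The series describes 2 biological replicates for each antibody, but the deposited list is merged, and the spread between them is therefore unknown for every value. No label used here states the sex of the mice or a pooling of animals. A peak list holds no expression values, and the tissue label was not checked against marker genes.

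Myosin, the motor of the thick filament, carries an essential and a regulatory light chain on the neck of each heavy chain, and the heart uses different light chains in its chambers. Myl2 (regulatory) and Myl3 (essential) are the ventricular light chains, and Myl3 is also found in slow skeletal muscle. Myl7 (regulatory) and Myl4 (essential) are their atrial counterparts in the adult. Mybpc3 encodes cardiac myosin-binding protein C, which tunes cross-bridge formation in both chambers and is a frequent site of mutations in hypertrophic cardiomyopathy. TBX5 is a transcription factor of the T-box family, is required for heart development and recognises a short core, GGTGT, of the T-box element.

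The windows were set on the mouse build mm9, on which the peaks were called. The Myl2 window ran from 122.5 to 122.62 Mb on chromosome 5, the Myl3 window from 110.6 to 110.72 Mb on chromosome 9 and the Mybpc3 window from 90.91 to 91.03 Mb on chromosome 2. On chromosome 11 lay the Myl7 window, from 5.75 to 5.85 Mb, and the Myl4 window, from 104.36 to 104.48 Mb. The only gene annotation used here is on another build (GRCm38.p6), so no peak was placed in a promoter, exon or intron, and a peak is named by its window only. Other genes lie close by in that annotation. The first protein-coding neighbours on each side are Cux2 and Ccdc63 for Myl2, Pth1r and Prss42 for Myl3, Spi1 and Madd for Mybpc3, and Cdc27 and Itgb3 for Myl4. Beyond Ccdc63, Ppp1cc lies 41.5 kb from Myl2, slightly closer than Cux2 at 42.3 kb. Ccdc63 overlaps the span of Myl2, and Cdc27 that of Myl4. Spi1 lies 2.36 kb and Madd 0.844 kb from Mybpc3. Which of these genes a peak acts on was not tested.

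The bases before the starts of 4 of these genes are shown because the windows ask where TBX5 is bound around them. They come from RefSeq on GRCm38.p6, are written 5′ to 3′ in the direction of the gene, and cannot be laid over the peaks, which are on mm9. Capitals mark each match to 1 of 5 motifs searched on both strands, namely the T-box core GGTGT, the motif AGATAA of the GATA factors, the motif AAGTG of NKX2-5, the motif CATTCC of the TEAD factors and the 10-base MEF2 motif.
Myl2, chr5:122092474-122092723, plus strand: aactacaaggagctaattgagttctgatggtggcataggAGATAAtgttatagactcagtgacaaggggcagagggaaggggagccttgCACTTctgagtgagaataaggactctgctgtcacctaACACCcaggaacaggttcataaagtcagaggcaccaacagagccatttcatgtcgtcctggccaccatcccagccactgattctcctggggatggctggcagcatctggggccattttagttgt
Myl3, chr9:110763428-110763677, plus strand: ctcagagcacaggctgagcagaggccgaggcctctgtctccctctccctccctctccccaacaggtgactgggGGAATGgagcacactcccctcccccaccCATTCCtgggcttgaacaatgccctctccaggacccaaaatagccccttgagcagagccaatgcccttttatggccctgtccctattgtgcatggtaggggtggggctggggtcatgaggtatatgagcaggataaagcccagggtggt
Mybpc3, chr2:91117894-91118113, plus strand: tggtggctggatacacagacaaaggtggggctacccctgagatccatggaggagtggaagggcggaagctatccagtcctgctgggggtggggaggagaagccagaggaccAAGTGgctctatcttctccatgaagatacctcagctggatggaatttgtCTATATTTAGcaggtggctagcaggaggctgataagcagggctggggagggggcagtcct
Myl7, chr11:5898783-5899032, minus strand: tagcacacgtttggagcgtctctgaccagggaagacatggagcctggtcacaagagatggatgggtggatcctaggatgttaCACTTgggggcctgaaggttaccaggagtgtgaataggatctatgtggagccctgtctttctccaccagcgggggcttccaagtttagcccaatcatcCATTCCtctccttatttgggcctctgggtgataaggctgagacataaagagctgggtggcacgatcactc
Each line ends at the base before the outermost start of its gene in the RefSeq gene table. Positions are counted from the start in the promoter table, which for Mybpc3 lies 30 bases further in. That table gives 2 starts for Myl2, 465 bases apart, and the outer one is shown. The Myl4 start in it lies 4646 bases inside the span of that gene and its sequence is not shown.

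The T-box core was found upstream of Myl2 alone among these 5 genes, as ACACC at position -124, counted back from -1 at the base before the start. Upstream of the start, 36.2% of all promoters held it, so a match in 1 of 5 genes does not set Myl2 apart. In the whole 300-base table window, from 250 bases before to 50 after a start, 2 of the 5 genes held it, Myl2 and Mybpc3. The Mybpc3 match, at position 32, lay after the start. The core is short, and 41.6% of all 32851 promoters in the table held it in the whole window. The longer AGGTGT was in 0 of the 5 genes, against 13.7% of all promoters. The AAGTG motif was found in 4 of the 5 (at -161 in Myl2, -139 in Mybpc3, -168 in Myl7 and -111 in Myl4) against 46.4% of all promoters. CATTCC occurred in Myl3 (at -177 and -149) and Myl7 (at -70) against 14.7%. AGATAA occurred in Myl2 (at -211) against 11.2%, and the MEF2 motif in Mybpc3 (at -90) against 3.69%. None of these matches overlapped another. A match is a string of letters and no measure of binding, and a window without one says nothing about the factor.

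Among 20 thick filament genes (cardiac and other myosin heavy chains and light chains, myosin-binding proteins C and H, titin, myomesins and the cardiac light chain kinase), 19 had a promoter in the table and Myom2 had none. The T-box core was in 7 of the 19 (36.8%). CATTCC was in 8 (42.1%), Myh6 and Myh7 among them, AGATAA in 5 (26.3%), AAGTG in 9 (47.4%) and the MEF2 motif in 2 (10.5%), Mybpc3 and Ttn. Counted by gene in the same way, 45.1% of all 27025 genes in the table held the T-box core, 16.6% CATTCC, 12.7% AGATAA, 49.99% AAGTG and 4.23% the MEF2 motif. None of these shares was tested.

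Each peak has a fold, the ratio of the scaled TBX5 pileup plus 1 to the local control level plus 1, and a q, the p-value corrected over the genome. Both are the authors' values. From the deposited fold and p, the whole number of TBX5 fragments over each summit and the local control level, in fragments per position on a scale of 0.787 per TBX5 fragment, were computed here. Over the list the median summit held 32 TBX5 fragments at a control level of 3.5, a fold of 5.52 and a −log10 q of 8.15. Intervals on fragments are exact 95% Poisson intervals and cover counting error only.

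By fragments and by q, the Myl2 window held the strongest TBX5 peak of the 5 windows, and its main summit had more TBX5 fragments than all but 1 of the 8849 peaks. That summit, in the peak from 122544389 to 122544948 on chromosome 5, rested on 217 fragments (189 to 248). The highest summit of the whole list had 230. The control level at the Myl2 summit was 12, which 3.66% of all peaks reached or passed, and left a fold of 13.2 and a −log10 q of 124. By q it ranked 53 of 8849, and by fold 614. The place of this site in the list therefore differs between counting TBX5 fragments and dividing them by the control.

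Next to it, from 122542559 to 122543337, lay a peak with 117 fragments (96.8 to 140) over a control level of 6. Its fold of 13.3 was nearly that of its neighbour, although its fragments were 1.85-fold fewer (exact 95% interval 1.47 to 2.34). Fold alone does not show this difference, since the control level was 12 at one summit and 6 at the other. The summits stood 1.78 kb apart. Of 674 neighbouring summits up to 2 kb apart in the list, 2 pairs had 100 or more fragments on both sides, and the Myl2 pair, with 334 fragments in all, had the most. These limits were chosen after the values had been seen, so the count is a description. The left peak was 779 bp wide, the 29th widest of the list. Among the 124 peaks within 10% of its fragment number, the median width was 416 bp and 6.45% were at least as wide. The right peak, 560 bp wide, was close to the median of 562 bp of the 10 peaks within 10% of its fragments.

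One more Myl2 peak, from 122550712 to 122550986, stood 6.16 kb from the main summit with 38 fragments (26.9 to 52.2) and a fold of 6.03. These 3 peaks formed 1 group when peaks up to 12.5 kb apart were joined, 8.43 kb long from end to end. The list has 374 groups of 3 or more peaks. In 17 of them (4.55%), this one included, the best peak had a q as strong as here, and in 11 (2.94%) the fragments summed over all summits reached the 372 of the Myl2 group. The median group held 135 fragments over 11.3 kb.

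The other 3 peaks of the Myl2 window were below the medians of the list in fold, q and fragments, the last of them by little in fold. The peak from 122521106 to 122521273 rested on 30 fragments (20.2 to 42.8), its fold being 4.10. For the peak from 122500211 to 122500349 the fragments were 22 (13.8 to 33.3) and the fold 4.58, and its summit lay 0.231 kb inside the edge of the window. The last, from 122618820 to 122618971, rested on 24 (15.4 to 35.7) with a fold of 5.50, at 119 kb of the 120 kb window. Neither of these edge peaks was within 20 kb of another peak. Outside the window, the nearest peaks were 49.4 kb before it, with 80 fragments, and 115 kb after it, with 32.

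**Figure D1:**
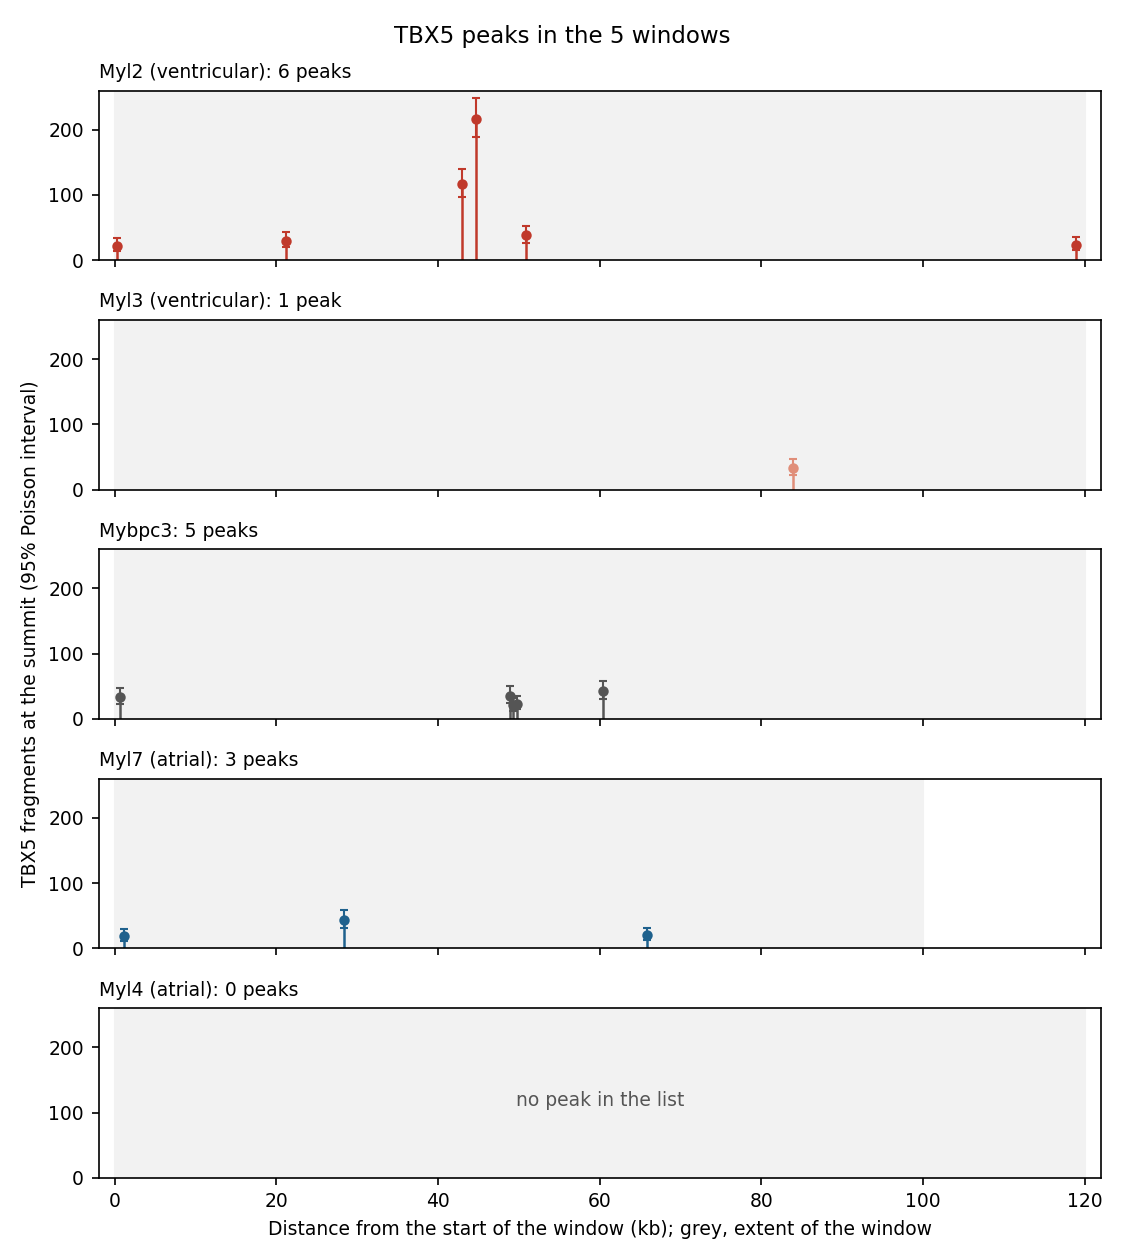
Each panel is 1 window, with the distance of each TBX5 summit from the start of the window in kb on the horizontal axis and the TBX5 fragments at the summit on the vertical axis (bars, exact 95% Poisson intervals). The pair of Myl2 summits at 117 and 217 fragments stands above the other 13 peaks, which hold 19 to 44, and the Myl4 panel is empty.

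Myl3, the other ventricular light chain, had a single weak peak. It lay from 110683865 to 110683996 on chromosome 9 and held 33 fragments (22.7 to 46.3), with a control level of 6.5, a fold of 3.59 and a −log10 q of 4.76. It was 132 bp wide, and 76.8% of the list ranked as high or higher by q. The next peaks began 98.6 kb after it and ended 141 kb before it. Outside the window, the nearest peak before it, at 57.4 kb, had 41 fragments (29.4 to 55.6), a control level of 2.26 and a fold of 10.2. The nearest after it, at 62.6 kb, had 45 (32.8 to 60.2) over 9 and a fold of 3.64. The main Myl2 summit had 6.58-fold the fragments of the Myl3 summit (4.54 to 9.80), over a control level of 12 against 6.5. Their folds were 13.2 and 3.59. These summits were picked as the strongest of their windows. The ratio is therefore a description, and its interval does not allow for that choice.

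The Mybpc3 window held 5 peaks, and the strongest was moderate. From 90970334 to 90970616 on chromosome 2, it had 43 fragments (31.1 to 57.9), with a control level of 3, a fold of 8.71 and a −log10 q of 19.4, and ranked 1797 by q. About 10 kb before it, 3 weak peaks followed one another with gaps of 0.282 and 0.273 kb. Their summits were 0.4 and 0.491 kb apart and held 36 fragments (25.2 to 49.8), 21 (13.0 to 32.1) and 23 (14.6 to 34.5), with folds of 4.19, 3.42 and 4.24. Peaks this close may be parts of 1 enriched stretch, and merged within 1 kb they counted as 1. The 4 peaks together made a group of 11.8 kb with 123 fragments, a sum that 61.8% of the groups of 3 or more reached.

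The edge of the Mybpc3 window ran between peaks of very different strength. Just inside, from 90910562 to 90910708, lay the peak with the lowest fold of all 15, with 34 fragments (23.5 to 47.5), a control level of 8.25 and a fold of 2.999. For this peak a second solution within the tolerance gave 32 fragments over 7.73. Just outside, 3.14 kb before the edge, the peak from 90906721 to 90906981 held 87 fragments (69.7 to 107), with a control level of 4, a fold of 13.9 and a −log10 q of 53.6. It ranked 430 of the list and was stronger than any peak counted for Mybpc3. The gene table places Spi1, Slc39a13 and Psmc3 on that side of Mybpc3. After the window, 5.31 kb beyond its end, lay a peak with 38 fragments and a fold of 4.26.

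Myl7, the atrial regulatory light chain, had 3 peaks, all weak. The peak from 5778247 to 5778416 on chromosome 11 had the most fragments, 44 (32.0 to 59.1), but over a control level of 9, so that its fold was 3.56 and its −log10 q 6.83. The peak from 5751149 to 5751290 had 19 (11.4 to 29.7) over 2.39 and a fold of 4.71. The last, from 5815801 to 5815963, held 20 (12.2 to 30.9) over 3.63 and a fold of 3.62. All 3 were below the medians of the list in fold and in q. Just outside the window, 1.003 kb before its start, a further peak had 34 fragments and a fold of 4.62.

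Myl4, the atrial essential light chain, had no peak in its window. The nearest summits were 156 kb before it, with 16 fragments and a fold of 6.24, and 563 kb after it, with 50 fragments and a fold of 5.38. Between these summits 838 kb held no listed peak. The caller's peak numbers ran on without a break there, as they did through the other 4 windows. A window of 120 kb without a peak is common, since 75.6% of the 120 kb stretches of the autosomes hold none. How often 838 kb hold none was not counted. The list does not show that TBX5 was absent. The weakest peaks in it had 10 fragments over the genome background of 1.18 fragments per position, 16 over a control level of 3 and 21 over a level of 5, and a site below such numbers is not listed.

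**Figure D2:**
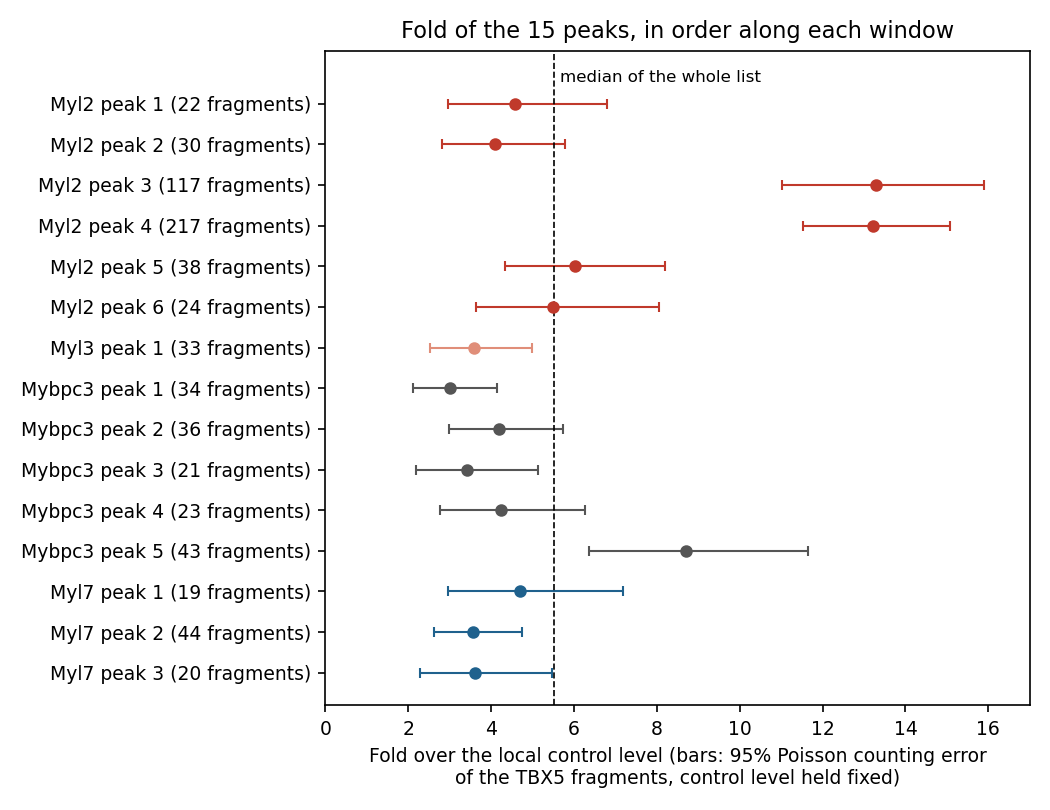
The authors' fold of each of the 15 peaks is plotted in order along its window, with bars for the counting error of the TBX5 fragments while the control level is held fixed, and the dashed line is the median fold of the list, 5.52. The intervals of the main Myl2 pair and of the last Mybpc3 peak lie above the median, and the 3 Myl7 intervals reach no further than 7.19.

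Read against the rest of the autosomes, the Myl2 window was dense in peaks, and the Myl3 and Myl4 windows were not. The Mybpc3 window was dense too, but less so once adjoining peaks were merged or weak ones left out. The Myl7 window was close to Mybpc3 after merging, and it kept no higher-scoring peak. Consecutive stretches of the same length were counted from the first base of each autosome to its last peak. Of 20473 stretches of 120 kb, 0.532% held 6 or more peaks, as Myl2 did, and 1.05% held 5 or more, as Mybpc3 did. The Myl2 number includes peaks at 0.231 and 119 kb of its window, so its share depends on where the edges were set. For comparison, 2.04% of these stretches held 4 or more. The single peak of Myl3 is matched or passed by 24.4%. For the 100 kb of the Myl7 window, 3.25% of 24566 stretches held 3 or more. These stretches include gene-poor sequence, while each window was set around a gene, so the shares do not compare these windows with those of other genes. Among the stretches of 120 kb that held any peak, 2.18% had 6 or more and 4.29% had 5 or more. With peaks within 1 kb merged, Mybpc3 kept 3 peaks, a number reached by 3.64% of all 120 kb stretches, and Myl2 kept 6, reached by 0.308%. Myl7 kept 3, reached by 2.75% of the 100 kb stretches. In the higher-scoring part of the list Mybpc3 kept 1 peak, as many as in 15.2% of stretches, and Myl2 kept 3, as many as in 1.36%. In the GRCm38.p6 table, a stretch as long as the window and centred on the gene overlaps 4 protein-coding genes for Myl2, 6 for Myl3, 5 for Mybpc3, 4 for Myl7 and 3 for Myl4, so Myl3 had the fewest peaks of the 4 windows with any and the most genes.

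**Figure D3:**
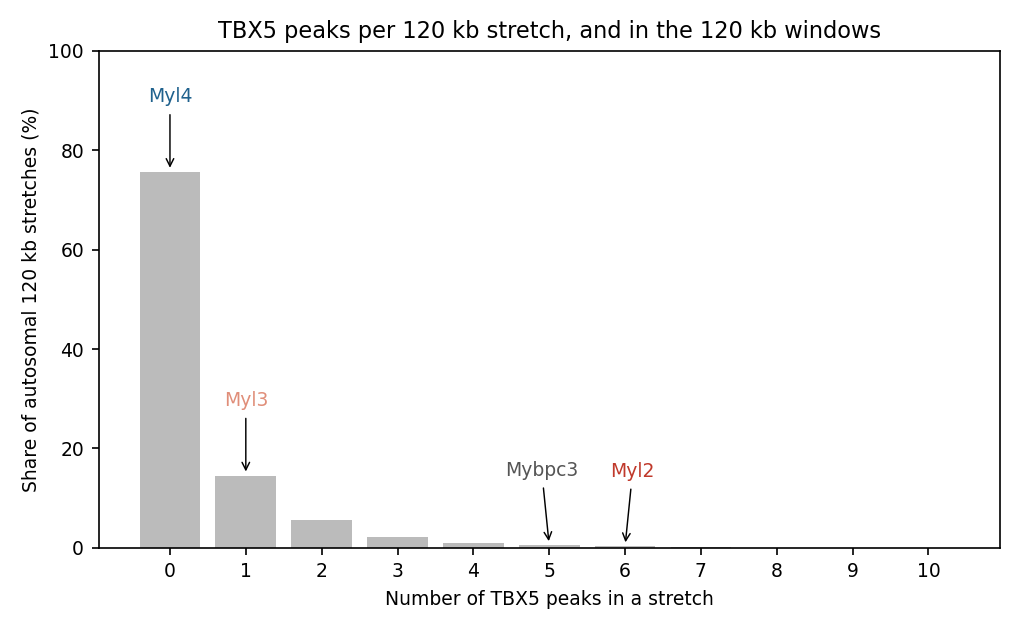
Bars give the share of autosomal 120 kb stretches, in percent, that hold each number of TBX5 peaks, up to 10, and arrows place the 4 windows of that length. The Myl4 window falls with the 75.6% of stretches without a peak, and the Myl2 and Mybpc3 windows lie at 6 and 5 peaks.

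Most peaks of the 5 windows were below the middle of the list in fold, and 4 of the 15 were above it. Their median fold was 4.24 against 5.52, and their median −log10 q 5.61 against 8.15, while their median of 33 fragments was close to the 32 of the list. Folds of at least 10 belonged to 2 of the 15, against 13.7% of all peaks. The control level was at least 3 at 13 of the 15, against 64.4% of the list, and its median was 4.12 against 3.5. No test was made, because peaks of 1 merged list are not replicates. Of the 15, 9 had a neighbour within 12.5 kb, against 36.5% of the list.

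**Figure D4:**
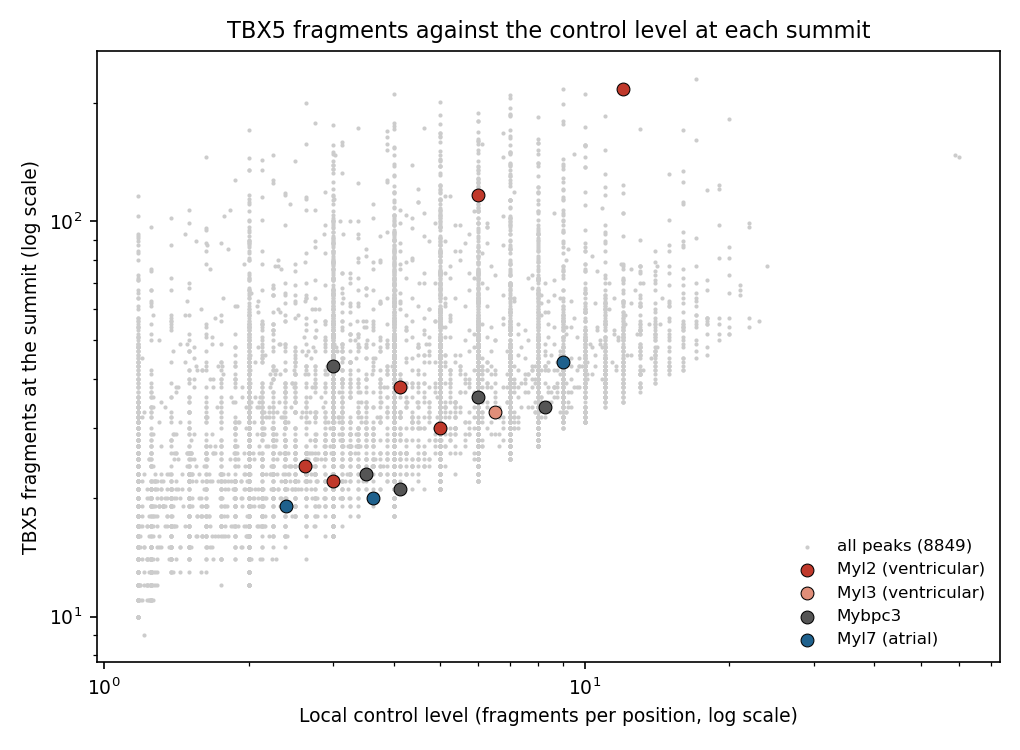
TBX5 fragments at the summit are plotted against the local control level, both on log axes, for all 8849 peaks (grey) and for the 15 peaks of the 5 windows (coloured). The main Myl2 summit, at 217 fragments over a control level of 12, lies at the upper edge of the cloud, and most of the other coloured points lie in its lower part.

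Set side by side, the ventricular light chain windows had more TBX5 peaks than the atrial ones, but the difference in number was within counting error and lay in Myl2 alone. Myl2 and Myl3 together held 7 peaks in 240 kb, 2.92 per 100 kb (1.17 to 6.01), and Myl7 and Myl4 held 3 in 220 kb, 1.36 per 100 kb (0.281 to 3.99). The ratio was 2.14, with an exact 95% interval of 0.488 to 12.8. These intervals take each peak as independent, but peaks of the list often lie in groups, so they are too narrow. Without Myl2, the ventricular side was 0.833 per 100 kb, below the atrial 1.36, and the difference of 1.55 turned to -0.53. The ratio of Myl3 to the atrial windows was 0.611 (0.0116 to 7.61), an interval that includes equal numbers. The median fold was 5.50 in the ventricular and 3.62 in the atrial windows, and the median fragments 33 and 20. These medians rest on 7 and 3 peaks, and 6 of the 7 were in the Myl2 window. The single Myl3 peak had 33 fragments but a fold of 3.59, no higher than the atrial median. Summed over summits, which also counts the difference in number, the ventricular windows held 481 fragments (200 per 100 kb) and the atrial windows 83 (37.7 per 100 kb), and 448 of the 481 were in the Myl2 window.

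Compared by the highest-scoring summit, Myl2 had 4.93-fold the fragments of Myl7 (3.55 to 6.98) and 5.05-fold those of Mybpc3 (3.62 to 7.17). Both ratios depend on the edges of the windows. With windows 20 kb longer at both ends, the peak of 87 fragments just outside counted for Mybpc3, and the ratio was 2.49 (1.94 to 3.24). For Myl7 the highest-scoring summit was then one of 34 fragments, and the ratio was 6.38 (4.43 to 9.45). Myl3 had 0.75 times those of Myl7 (0.463 to 1.21), an interval that includes equal numbers, and Mybpc3 0.977 times (0.627 to 1.52). In order of fragments the summits of the windows as set thus ran Myl2, Myl7, Mybpc3 and Myl3, and the intervals of the last 3 overlapped. With the longer windows Mybpc3 came before Myl7. By the highest fold in each window the order was Myl2, Mybpc3, Myl7 and Myl3, and with the longer windows Mybpc3, at 13.9, came before Myl2, at 13.3. The highest fold of the ventricular windows was 2.82 times that of the atrial windows (1.78 to 4.65 from counting error), and without Myl2 it was 0.764 times. The counting intervals of the latter folds, 2.52 to 4.99 for Myl3 and 2.95 to 7.19 for Myl7, overlapped. The summits were picked as the highest of their windows, and reads that carry no molecular identifiers can be copies of 1 molecule. These intervals allow for neither and are too narrow. They cover counting error only and do not measure how binding varies between animals.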

How the data were processed

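TBX5 ChIP-seq peaks of adult mouse ventricle were taken from 1 merged list. The submitters' processing notes name MACS2 (2.1.1.20160309.0), Bowtie2 (2.2.6.2) and FastQC (0.10.0), with mm9 as the build. Peak calling settings, the control used in calling and the merging of replicates were not given in the sources used here. For each peak the authors deposited a fold enrichment (a ratio), −log10 p and −log10 q (of the p-value and q-value) and a score, which was the whole part of 10 times −log10 q in 99.97% of peaks. Coordinates are given from 1.

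Fragments and control levels were computed here from the deposited fold and −log10 p with the formulas of MACS2. All peaks were solved within a tolerance of 0.005 on −log10 p, and 240 had a second solution, of which the closer was taken. The method was tested on simulated data made with the same formulas. Such a test checks how they are solved, and not whether they hold for the deposited list. The 5 windows, the gene lists and the motifs were chosen with earlier results of these data known. All peaks in the windows are given. No test across samples was possible. Motifs were searched in RefSeq promoters (GRCm38.p6), where all 5 genes were matched. Alternatives changed the window edges, the peaks counted, the stretches and the motif. The tools were pandas 2.3.3, numpy 2.4.6 and scipy 1.17.1 under Python 3.11.15, and matplotlib 3.10.9 for plots.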

Additional observations from a re-analysis of the deposited data

How the results depend on the processing

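Of 57 alternative values, 34 stayed within a factor of 1.5 for a count or the 95% interval for other values, 21 moved and 2 turned direction. Both turns came from leaving out the Myl2 window, an alternative added after the data were seen, which gave a ventricular minus atrial difference of -0.53 peaks per 100 kb and a ratio of the highest folds of 0.764. Both rest on the single Myl3 peak, so neither shows a direction beyond counting error. The higher-scoring part of the list left 4 peaks in the windows, with a median fold of 10.96. In it 1.36% of stretches had as many peaks as Myl2 and 15.2% as many as Mybpc3, and 84.8% had none, as Myl4. The Myl3 and Myl7 windows kept no peak there, so the ratio of folds and the shares for Myl3 and Myl7 could not be had. Among stretches with at least 1 peak the shares were 2.18% for Myl2, 100% for Myl3 (by construction), 4.29% for Mybpc3 and 15.1% for Myl7. Picking the strongest summit by fold gave 117 fragments for Myl2 and 19 for Myl7. With AGGTGT the T-box core was in 0 of the 5 promoters, 1 of 19 thick filament promoters and 13.7% of all. Upstream of the start GGTGT was in 1, 3 and 36.2%. Longer or shorter windows gave 18 and 11 peaks, and longer ones 87 fragments for Mybpc3. With peaks within 1 kb merged the shares were 0.308% for Myl2, 3.64% for Mybpc3 and 2.75% for Myl7. These last 4 values were added after the data were seen. No paired analysis was possible because the replicates were merged, and no replicate could be left out. Of the 15 summits, 13 held 44 fragments or fewer, and the effect of depth on them was not tested.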
